A study of Mus musculus with 6 samples.

Results

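The genes described here are the 30 nuclear-encoded enzymes, subunits and carriers of the tricarboxylic acid (TCA) cycle, of pyruvate entry into it, and of the breakdown of branched-chain amino acids. They were taken by gene symbol from the deposited table of read counts, in which 30 of 30 symbols were found among 54532 rows. 4 serve pyruvate entry (Mpc1, Mpc2, Pdha1, Pdhb), 13 the TCA cycle (Cs, Idh3a, Idh3b, Idh3g, Idh2, Ogdh, Dlst, Dld, Suclg1, Sucla2, Fh1, Mdh2, Mdh1) and 13 branched-chain breakdown (Bcat2, Bckdha, Bckdhb, Dbt, Ppm1k, Ivd, Mccc1, Auh, Hibadh, Hibch, Pcca, Pccb, Mut). RNA was sequenced from hearts of C57BL/6 mice aged 8 to 10 weeks, taken at day 14 after myocardial infarction (MI), and how much of the scar each sample held is not stated. The groups were 3 wild-type hearts (WT) and 3 hearts of mice without the atypical chemokine receptor ACKR4 (ACKR4_KO), so every heart in both groups was infarcted and no uninjured heart was included. The labels give each sample a replicate number and, in its title, a further number, and they do not say what that number stands for or how the knockout was made.

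In heart muscle, pyruvate made from glucose or lactate crosses the inner mitochondrial membrane through the MPC1 and MPC2 carrier and is turned into acetyl coenzyme A by the pyruvate dehydrogenase complex. The TCA cycle oxidises acetyl groups to CO2 and passes the electrons to the respiratory chain. Leucine, isoleucine and valine are first stripped of their amino group by the transaminase BCAT2 and then decarboxylated by the branched-chain ketoacid dehydrogenase complex, the committed step, and their carbon ends as acetyl or succinyl coenzyme A. The kinase BCKDK switches that complex off and the phosphatase PPM1K switches it on. Cardiomyocytes are packed with mitochondria, so in bulk heart tissue the level of these transcripts also depends on how much muscle a sample holds.

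Libraries held between 9422462 and 13910358 reads, of which the 30 genes took between 1.04% and 1.41%. The targeted gene Ackr4 had between 151 and 169 reads in the WT libraries and between 1 and 12 reads in the ACKR4_KO libraries. Levels are CPM, read counts divided by library size, with the sizes scaled by TMM to bring the libraries to a common level, and are given for replicates 1, 2 and 3 in that order, with means ± SD over n = 3 libraries. Variation between libraries was unequal: over all genes the coefficient that edgeR estimates beyond counting error was 11.7% within WT and 26.8% within ACKR4_KO, and for the 30 genes the median was 9.7% and 24%. Markers of other tissues also differed by genotype or library. The summed level of the 10 lung epithelium markers was 44.1 to 270.8 CPM in WT and 1.05 to 2.15 CPM in ACKR4_KO, with 7 of 7 tested markers lower. Sftpc, Sftpd, Cldn18, Slc34a2 and Scgb1a1 were at 0 in every ACKR4_KO library, though Scgb1a1 had only 5, 0 and 2 reads in WT. That of the 12 fibroblast and scar matrix markers was 14130 to 15820 CPM in WT against 12410, 5524 and 20070 CPM in ACKR4_KO, with 10 of 12 fitted below 0. White adipocyte markers summed to 11.8 to 306.8 CPM in WT and 4.71 to 103.7 CPM in ACKR4_KO, and T cell markers to 15.8 to 20.8 CPM and 7.60 to 9.37 CPM. Endothelial markers summed to 2596 to 2856 CPM and 1907 to 2713 CPM, and macrophage markers to 1638 to 2066 CPM and 1299 to 1914 CPM. Fast skeletal muscle markers summed to 4.67, 122.9 and 163.6 CPM in WT and 2.91, 11.4 and 5.06 CPM in ACKR4_KO. Erythrocyte markers summed to 263 to 319 CPM in WT and 201, 638.9 and 137 CPM in ACKR4_KO. Brown adipocyte markers summed to 48.48 to 60.76 CPM in WT and 40.5 to 42.52 CPM in ACKR4_KO, without overlap. Among them Dio2 was at 34.08, 29.12 and 29.27 CPM in WT and 19.79, 8.3 and 16.32 CPM in ACKR4_KO. Its log2 fold change was -1.05 (adjusted p = 0.606 by edgeR). Cidea went the other way, at a log2 fold change of 0.219, and its groups overlapped. Elovl3 had no read in any library and Ucp1 had none in ACKR4_KO and at most 0.0778 CPM in WT. The part of these tissues in the results below was not tested.

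All 30 genes passed the filter on low counts. The fitted log2 fold change, ACKR4_KO minus WT, was above 0 for 29 of 30, and over all 14406 genes tested it was above 0 for 52%. With the quasi-likelihood test of edgeR at 0.05 after adjustment, 0 of the 30 passed, and so did 0 of all genes (0%), and the smallest adjusted p among them was 0.606, for Bckdhb. At an unadjusted p under 0.05 there was 1 of 30, Bckdhb, where 3.81% of all genes were that low in p and higher in ACKR4_KO. DESeq2 called 0 of the 30 (0.261% of the genes for which it gave an adjusted p), as did edgeR without a filter on low counts (0.0942% of all genes). The targeted gene Ackr4 itself, with a log2 fold change of -4.70, missed the threshold in the main edgeR test (adjusted p = 0.099). It passed by DESeq2 (adjusted p = 1.3e-18) and by edgeR without a filter (adjusted p = 8.58e-05). The median log2 fold change of the 30 genes was 0.23, against 0.01 for all genes tested. By role it was 0.25 for pyruvate entry, 0.25 for the TCA cycle and 0.23 for branched-chain breakdown.

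This shift lay mostly in ACKR4_KO replicate 2. That library was above every WT library for 30 of 30 genes, and it was the highest of the 6 libraries for 29 of 30, while it was the highest for 24.6% of all genes. Its median log2 level relative to the WT mean was 0.52. It also had the highest summed level of the 15 cardiomyocyte markers, 78870 CPM, the highest of the erythrocyte markers, 638.9 CPM, and the lowest of the fibroblast and scar markers, 5524 CPM. In bulk tissue, fewer cells of a type and less RNA per cell cannot be told apart. ACKR4_KO replicate 1 was above every WT library for 16 genes, with a median of 0.14, and ACKR4_KO replicate 3 for 5 genes, with a median of -0.06. ACKR4_KO replicate 3 was the lowest of the 6 libraries for 9 genes and WT replicate 3 for 19. Without ACKR4_KO replicate 2 the median over the 30 genes was 0.07 and 24 of 30 were above 0, and without ACKR4_KO replicate 3 it was 0.36 and 30 of 30 were. The spread of log2 CPM was larger within ACKR4_KO than within WT for 30 of 30 genes (74.7% of all genes). The 3 ACKR4_KO libraries all lay above the 3 WT libraries for 3 of 30 genes, Idh3a, Bckdhb and Auh (6.53% of all genes), and all below for 0 of 30 (7.63%).

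**Figure D1:**
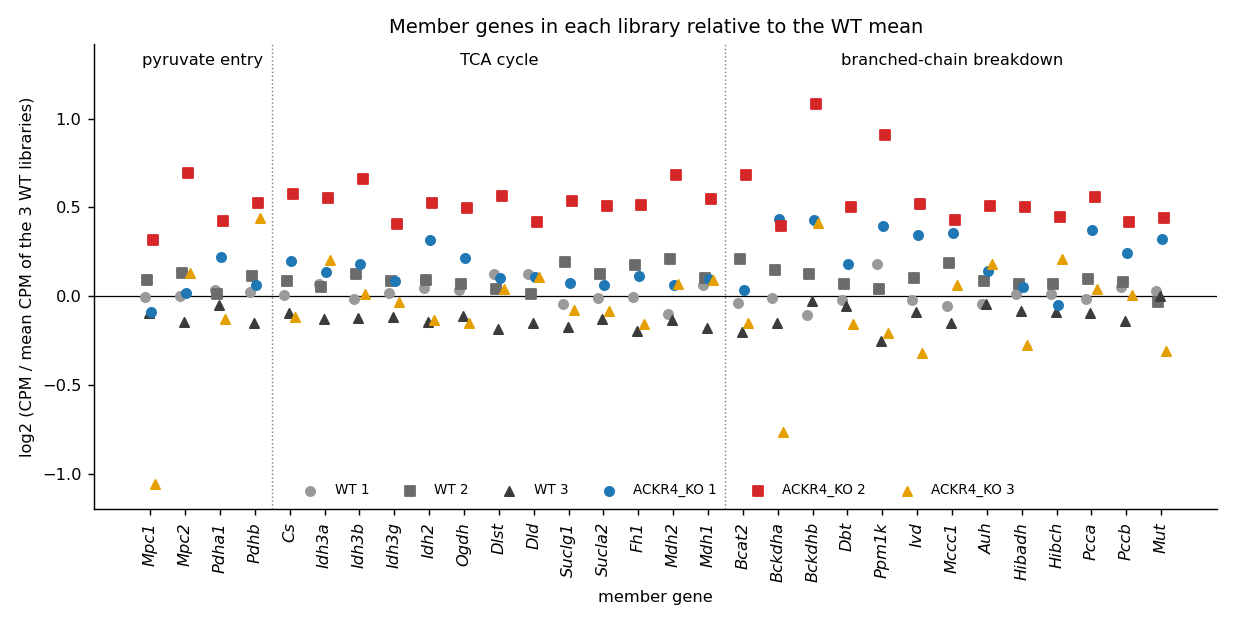
The 30 genes are ordered by role on the horizontal axis, and the vertical axis is the log2 ratio of a library's CPM to the mean of the 3 WT libraries. Each point is 1 library: grey symbols are WT, blue circles ACKR4_KO 1, red squares ACKR4_KO 2 and orange triangles ACKR4_KO 3. Red squares are the top point for 29 genes, and the orange triangles of Mpc1 and Bckdha lie lowest, at -1.06 and -0.76.

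Among the genes of pyruvate entry, Pdhb, which encodes the beta subunit of the decarboxylase of pyruvate dehydrogenase, was measured at 468, 499 and 415 CPM in the WT hearts and 481, 663 and 625 CPM in the knockout hearts (means 461 ± 42.5 and 589.5 ± 95.7). Replicates 2 and 3 of ACKR4_KO exceeded every WT library and replicate 1 did not. Its log2 fold change was 0.36 (standard error 0.17, adjusted p = 0.682 by edgeR). Pdha1, the partner alpha subunit whose phosphorylation switches the complex off, was at 584, 575 and 551 CPM in the WT hearts and 664, 766 and 522 CPM in the knockout hearts (means 570.1 ± 17.0 and 651 ± 122), a log2 fold change of 0.19 (standard error 0.17). Here ACKR4_KO replicate 3 was the lowest of the 6 libraries, unlike for Pdhb. Pdha1 shares 16.1% of its exonic bases with Map3k15 on the opposite strand, a gene with 0.16% as many reads.

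Of the carrier subunits, Mpc2 was at 237, 259.7 and 215 CPM in the WT hearts and 240, 384 and 259 CPM in the knockout hearts (means 237 ± 22.6 and 294 ± 78.2), with ACKR4_KO replicate 2 alone far above WT. Its log2 fold change was 0.31 (standard error 0.20). Mpc1 was the only one of the 30 genes with a fitted fold change below 0, at 52.3, 56.0 and 49.2 CPM in the WT hearts and 49.4, 65.5 and 25.2 CPM in the knockout hearts (means 52.5 ± 3.37 and 46.7 ± 20.3), a log2 fold change of -0.17 (standard error 0.30, adjusted p = 0.905 by edgeR). ACKR4_KO replicate 3 stood apart with the lowest level, and without it the log2 fold change was 0.13. Reads of this transcript may be split between 2 rows. The processed pseudogene Mpc1-ps, whose annotated sequence is 100% identical to Mpc1 over 261 bases, held 13504 reads over the 6 libraries against 3470 for Mpc1. Mpc1-ps was at 189.7, 208 and 183 CPM in the WT hearts and 214, 262 and 104 CPM in the knockout hearts, and the sum of both rows was 242, 264 and 232 CPM in the WT hearts and 263, 327 and 129 CPM in the knockout hearts. ACKR4_KO replicate 3 was lowest and ACKR4_KO replicate 2 highest in both rows and in the sum. The log2 ratio of the group means of the sum was -0.04, so a difference between the groups was not detectable against the spread within ACKR4_KO.

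In the TCA cycle 13 of 13 genes had a fitted log2 fold change above 0, in the narrow range of 0.16 for Idh3g to 0.31 for Idh3a, and 0 of 13 passed. Idh3a, the catalytic subunit of the NAD-dependent isocitrate dehydrogenase, was at 387, 382 and 337 CPM in the WT hearts and 405, 542 and 425 CPM in the knockout hearts (means 369 ± 27.4 and 457 ± 73.7). It was the only gene of the cycle whose libraries did not overlap, by a margin of 387 against 405 CPM between the nearest libraries. Its log2 fold change was 0.31 (standard error 0.16, adjusted p = 0.691 by edgeR), and 0.18 without ACKR4_KO replicate 2. Idh3b, a regulatory subunit of that enzyme, was at 476, 524 and 442 CPM in the WT hearts and 545, 759 and 485 CPM in the knockout hearts (means 481 ± 41.3 and 596 ± 144), with ACKR4_KO replicate 3 inside the WT range, and a log2 fold change of 0.31 (standard error 0.19). The other regulatory subunit, Idh3g, averaged 264 ± 18.6 CPM in the WT hearts against 296 ± 47.9 in the knockouts, at a log2 fold change of 0.16.

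Dld, the dihydrolipoyl dehydrogenase subunit that the pyruvate, alpha-ketoglutarate and branched-chain dehydrogenases share, was at 348, 322 and 287 CPM in the WT hearts and 344, 426 and 344 CPM in the knockout hearts (means 319 ± 30.6 and 371 ± 47.4), a log2 fold change of 0.22 (standard error 0.15). The libraries overlapped, since WT replicate 1 was above replicates 1 and 3 of ACKR4_KO. Idh2, the mitochondrial NADP-dependent isocitrate dehydrogenase and the most abundant of the 30 per kilobase, was at 1359, 1402 and 1191 CPM in the WT hearts and 1643, 1897 and 1199 CPM in the knockout hearts (means 1317 ± 111 and 1580 ± 354). Replicates 1 and 2 of ACKR4_KO exceeded every WT library and replicate 3 was next to the lowest WT library, and the log2 fold change was 0.26 (standard error 0.21). Citrate synthase (Cs), which joins acetyl coenzyme A to oxaloacetate, averaged 861 ± 53.4 CPM in the WT hearts against 1021 ± 246 in the knockouts, at a log2 fold change of 0.25. Ogdh and Dlst encode the other subunits of the alpha-ketoglutarate dehydrogenase complex. Ogdh averaged 1330 ± 87.4 CPM in the WT hearts against 1541 ± 339 in the knockouts, at a log2 fold change of 0.21. Dlst averaged 427 ± 45.8 CPM in the WT hearts against 510 ± 107 in the knockouts, at a log2 fold change of 0.26.

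Of the later steps, Suclg1, the subunit common to both succinyl coenzyme A ligases, averaged 233 ± 30.7 CPM in the WT hearts against 268 ± 61.5 in the knockouts, at a log2 fold change of 0.20. Sucla2, which makes the ADP-dependent form, averaged 404 ± 35.3 CPM in the WT hearts against 459 ± 102 in the knockouts, at a log2 fold change of 0.18. Fumarase (Fh1) averaged 313 ± 40.3 CPM in the WT hearts against 356 ± 84.7 in the knockouts, at a log2 fold change of 0.18. These 3 had log2 fold changes between 0.18 and 0.20, and those of Sucla2 and Fh1 were -0.006 and -0.01 without ACKR4_KO replicate 2. Mdh2, the mitochondrial malate dehydrogenase, averaged 814 ± 110.2 CPM in the WT hearts against 1004 ± 261 in the knockouts, at a log2 fold change of 0.30. Mdh1, its cytosolic counterpart in the malate-aspartate shuttle, averaged 1253 ± 127 CPM in the WT hearts against 1502 ± 283 in the knockouts, at a log2 fold change of 0.26.

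In branched-chain breakdown 13 of 13 genes had a fitted log2 fold change above 0, but they varied more than the genes of the cycle, from 0.12 for Bckdha to 0.68 for Bckdhb. Bckdhb, the beta subunit of the branched-chain decarboxylase, was at 33.0, 38.7 and 34.8 CPM in the WT hearts and 47.8, 75.0 and 47.2 CPM in the knockout hearts (means 35.5 ± 2.91 and 56.7 ± 15.9). Every ACKR4_KO library was above every WT library. The log2 fold change of 0.68 (standard error 0.19), a 1.60-fold higher level, was the largest of the 30 genes, with an unadjusted p of 0.0067 and an adjusted p of 0.606 by edgeR, so it did not pass. It lay between 0.31 and 0.80 in the 17 alternatives run, with adjusted p from 0.156 to 0.999, and was 0.43 without ACKR4_KO replicate 2. Bckdha, the alpha subunit that carries the phosphorylated serine of the complex, was at 61.3, 68.4 and 55.8 CPM in the WT hearts and 83.6, 81.4 and 36.4 CPM in the knockout hearts (means 61.8 ± 6.33 and 67.1 ± 26.6). Replicates 1 and 2 of ACKR4_KO were above WT and replicate 3 was below it. Its log2 fold change of 0.12 (standard error 0.29) became 0.42 without ACKR4_KO replicate 3 and -0.07 without replicate 1. Bckdha shares 61.7% of its exonic bases with B3gnt8 on the opposite strand, and the strand setting of the counting is not given, so reads there may be lost or shared. B3gnt8 was at 9.34, 10.4 and 10.4 CPM in WT and 7.92, 7.38 and 16.3 CPM in ACKR4_KO.

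The remaining genes of the first steps did not pass either. Bcat2, the mitochondrial transaminase, averaged 93.9 ± 13.7 CPM in the WT hearts against 111 ± 35.2 in the knockouts, at a log2 fold change of 0.23. Dbt, the transacylase core of the dehydrogenase complex, averaged 48.6 ± 2.18 CPM in the WT hearts against 55.8 ± 12.7 in the knockouts, at a log2 fold change of 0.20. Ppm1k, the phosphatase that activates the complex, was at 58.0, 52.7 and 43.0 CPM in the WT hearts and 67.4, 96.2 and 44.4 CPM in the knockout hearts (means 51.2 ± 7.60 and 69.3 ± 25.95), with ACKR4_KO replicates 1 and 2 above WT and replicate 3 within it, and a log2 fold change of 0.44 (standard error 0.26, adjusted p = 0.708 by edgeR).

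For the leucine branch, Ivd, the isovaleryl coenzyme A dehydrogenase and the most abundant gene of branched-chain breakdown per kilobase, was at 263, 286 and 251 CPM in the WT hearts and 339, 383 and 214 CPM in the knockout hearts (means 267 ± 18.2 and 312 ± 87.8). Here too replicates 1 and 2 of ACKR4_KO were above every WT library and replicate 3 was below every one, and the log2 fold change was 0.23 (standard error 0.21). Mccc1, the biotin-carrying subunit of methylcrotonyl coenzyme A carboxylase, averaged 67.0 ± 8.25 CPM in the WT hearts against 82.0 ± 10.6 in the knockouts, at a log2 fold change of 0.29. Auh, the hydratase of the following step, was at 59.8, 65.5 and 59.8 CPM in the WT hearts and 68.0, 87.8 and 69.8 CPM in the knockout hearts (means 61.7 ± 3.33 and 75.2 ± 10.95). Its groups did not overlap, although the gap between WT replicate 2 and ACKR4_KO replicate 1 was small, and the log2 fold change of 0.29 (standard error 0.13, adjusted p = 0.674 by edgeR) was 0.16 without ACKR4_KO replicate 2.

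For the valine branch, Hibch, a hydrolase, averaged 59.3 ± 3.31 CPM in the WT hearts against 68.8 ± 11.7 in the knockouts, at a log2 fold change of 0.21, and Hibadh, the dehydrogenase after it, averaged 193 ± 10.2 CPM in the WT hearts against 211 ± 58.1 in the knockouts, at a log2 fold change of 0.13. For the propionyl branch shared by isoleucine and valine, Pcca, the alpha subunit of propionyl coenzyme A carboxylase, was at 49.9, 53.9 and 47.2 CPM in the WT hearts and 65.3, 74.1 and 51.8 CPM in the knockout hearts (means 50.3 ± 3.39 and 63.7 ± 11.2). ACKR4_KO replicate 3 lay inside the WT range, and the log2 fold change was 0.34 (standard error 0.15, adjusted p = 0.666 by edgeR). Pccb, its beta subunit, averaged 95.8 ± 7.75 CPM in the WT hearts against 113 ± 15.8 in the knockouts, at a log2 fold change of 0.23. Mut, the cobalamin-dependent mutase that delivers succinyl coenzyme A to the cycle, averaged 81.6 ± 1.84 CPM in the WT hearts against 92.9 ± 23.8 in the knockouts, at a log2 fold change of 0.19. In ACKR4_KO replicate 1 the median of the 13 genes relative to the WT mean was 0.32, against 0.11 for the TCA cycle, and in replicate 3 it was -0.15 against -0.04. These differences between the roles were not tested.

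Ratios of 2 genes within a library do not depend on how libraries are scaled, and 12 were compared between the groups by a two-sided exact permutation test. With 3 against 3 the smallest p is 0.1, so none could pass, and the adjusted p of the 12 ratios lay between 0.48 and 0.9. The log2 ratio of Bckdha to Bckdhb was 0.89, 0.82 and 0.68 in WT and 0.81, 0.12 and -0.38 in ACKR4_KO (exact permutation p = 0.2). The 3 WT libraries and ACKR4_KO replicate 1 lay together and replicates 2 and 3 of ACKR4_KO lay lower. The log2 ratio of Pdha1 to Pdhb was 0.32, 0.20 and 0.41 in WT and 0.46, 0.21 and -0.26 in ACKR4_KO (exact permutation p = 0.7), with only ACKR4_KO replicate 3 outside the WT range on the low side.

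Between the carrier subunits, the log2 ratio of Mpc1 to Mpc2 was -2.18, -2.21 and -2.12 in WT and -2.28, -2.55 and -3.36 in ACKR4_KO, lower in 3 of 3 ACKR4_KO libraries (exact permutation p = 0.1), and with Mpc1 subject to the split of reads described above. Idh3b to Idh3g was higher in 3 of 3 (exact permutation p = 0.1), by 0.13 on the log2 scale. The ratio of the activating phosphatase to the inactivating kinase, Ppm1k to Bckdk, was -0.54, -0.81 and -0.88 in WT and -0.28, -0.002 and -0.59 in ACKR4_KO, a difference of 0.45 (exact permutation p = 0.2). ACKR4_KO replicates 1 and 2 were above every WT library and replicate 3 was within them. Suclg1 to Sucla2 and Mdh2 to Mdh1 differed by 0.02 and 0.03, and Bcat2 to Cs by -0.02, each less than the spread between WT libraries.

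**Figure D2:**
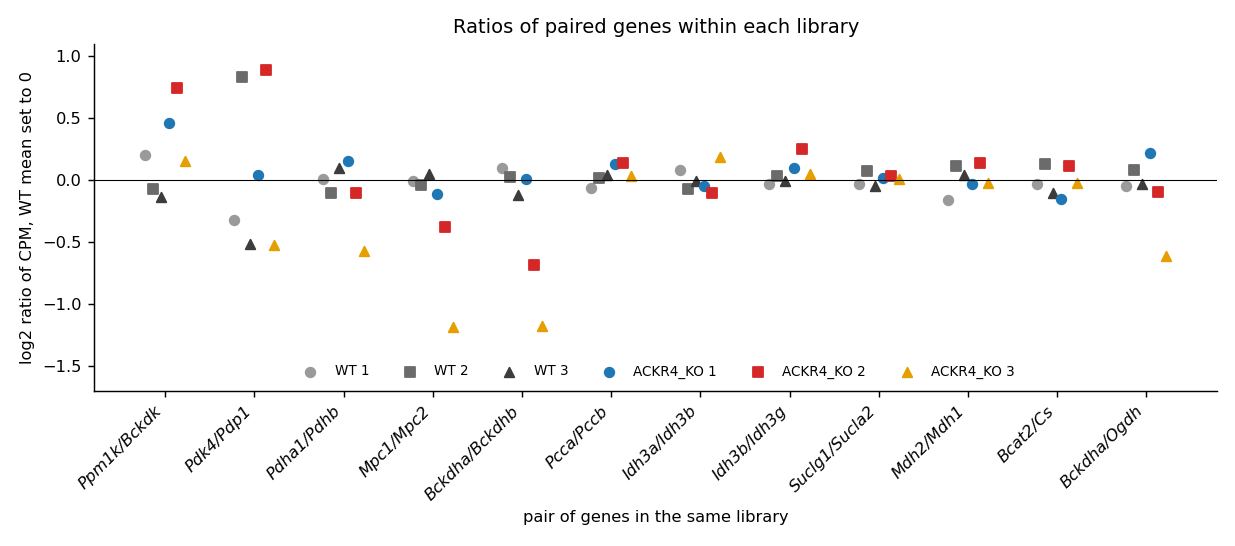
For 12 pairs of genes, the vertical axis is the log2 ratio of their CPM within a library, with the mean of the 3 WT libraries set to 0, and each point is 1 library. ACKR4_KO 3 (orange triangles) is the lowest point for Pdha1/Pdhb, Mpc1/Mpc2, Bckdha/Bckdhb and Bckdha/Ogdh, while the points for Suclg1/Sucla2 and Pcca/Pccb stay close together.

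The promoters of these 4 decarboxylase subunits are shown because the alpha to beta ratio of each enzyme was lowest in ACKR4_KO replicate 3, and they were chosen after these ratios were seen. They are the 250 bases before the RefSeq start site on GRCm38.p6, 5′ to 3′ along the gene, at chrX:160138431-160138680 on the minus strand (Pdha1), chr14:8172993-8173242 on the minus strand (Pdhb), chr7:25658762-25659011 on the minus strand (Bckdha) and chr9:83924887-83925136 on the plus strand (Bckdhb). Capitals mark matches, on either strand, to CCAAT (the NF-Y box) and GGGCGG (the GC box bound by Sp and Krüppel-like factors).
Pdha1: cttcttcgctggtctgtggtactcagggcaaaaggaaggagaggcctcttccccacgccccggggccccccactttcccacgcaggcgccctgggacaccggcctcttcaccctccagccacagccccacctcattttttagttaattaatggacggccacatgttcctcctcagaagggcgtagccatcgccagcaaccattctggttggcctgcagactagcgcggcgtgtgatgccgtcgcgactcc
Pdhb: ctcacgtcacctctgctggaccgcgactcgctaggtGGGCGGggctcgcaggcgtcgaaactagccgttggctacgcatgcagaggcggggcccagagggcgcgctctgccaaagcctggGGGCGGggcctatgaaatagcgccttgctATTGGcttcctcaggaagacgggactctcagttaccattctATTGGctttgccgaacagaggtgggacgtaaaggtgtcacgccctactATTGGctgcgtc
Bckdha: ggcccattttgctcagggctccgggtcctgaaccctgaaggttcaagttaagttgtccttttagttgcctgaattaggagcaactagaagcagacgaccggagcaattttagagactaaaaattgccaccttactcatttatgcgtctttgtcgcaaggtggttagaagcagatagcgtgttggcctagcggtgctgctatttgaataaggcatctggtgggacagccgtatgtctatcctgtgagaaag
Bckdhb: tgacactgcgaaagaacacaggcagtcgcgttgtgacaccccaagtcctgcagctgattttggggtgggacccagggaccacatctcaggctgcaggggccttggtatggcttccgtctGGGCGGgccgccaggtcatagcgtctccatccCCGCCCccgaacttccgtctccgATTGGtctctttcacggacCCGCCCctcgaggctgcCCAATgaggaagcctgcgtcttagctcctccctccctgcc
Both beta subunit promoters hold both motifs, with 3 CCAAT and 2 GGGCGG matches in Pdhb and 2 and 3 in Bckdhb. Both alpha subunit promoters hold 0 of either. Most of the Bckdha window lies inside the gene as GENCODE annotates it, with its 5′ end at 25658981, so it may miss that promoter. The same limit holds for Mpc1, Mpc2, Mdh1 and Sucla2, whose windows lie wholly inside the annotated gene. Some other windows, such as those of Mdh2 and Suclg1, lie partly inside. Pcca and Pccb are another alpha and beta pair. Their log2 ratio was -0.994, -0.908 and -0.882 in WT and -0.796, -0.788 and -0.895 in ACKR4_KO (exact permutation p = 0.2). The groups overlapped, with ACKR4_KO replicate 3 inside the WT range. A link between motifs and ratios was not tested. The Pcca promoter holds 1 CCAAT and 2 GGGCGG matches and that of Pccb 0 of either. Of the 27 genes with a promoter in the table (Idh3a, Dbt and Mut were not matched), CCAAT was found in 16 (59.3%, against 34.3% of all 27025 promoters) and GGGCGG in 18 (66.7%, against 33%). AAGGTCA, the site of the estrogen-related receptors, was found in 0 (0%, against 4.01%). The core of the NRF1 site was found in 3, Hibadh, Pccb and Sucla2 (11.1%, against 3.86%). The promoters compared with were not matched to the 27 for GC content or for expression in heart. No overlap between motifs was removed. A match describes these letters and does not show that a factor binds.

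Compared per kilobase of annotated exon in WT, the genes of the cycle had higher levels than those of branched-chain breakdown, except that Dlst was below Ivd. The TCA genes lay between 44.7 (Dlst) and 509 CPM per kilobase (Idh2), with Mdh1 at 488 next, and those of branched-chain breakdown between 6.12 (Mccc1) and 48.4 (Ivd). Pdha1 and Pdhb were at 153 and 119, while the carrier genes Mpc1 and Mpc2 were at 25.2 and 32.3. Within the branched-chain complex the WT levels per kilobase were 32.6 for Bckdha, 19.7 for Bckdhb and 14.5 for Dbt. The lengths include every annotated exon, so this scale depends on which isoforms are annotated.

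**Figure D3:**
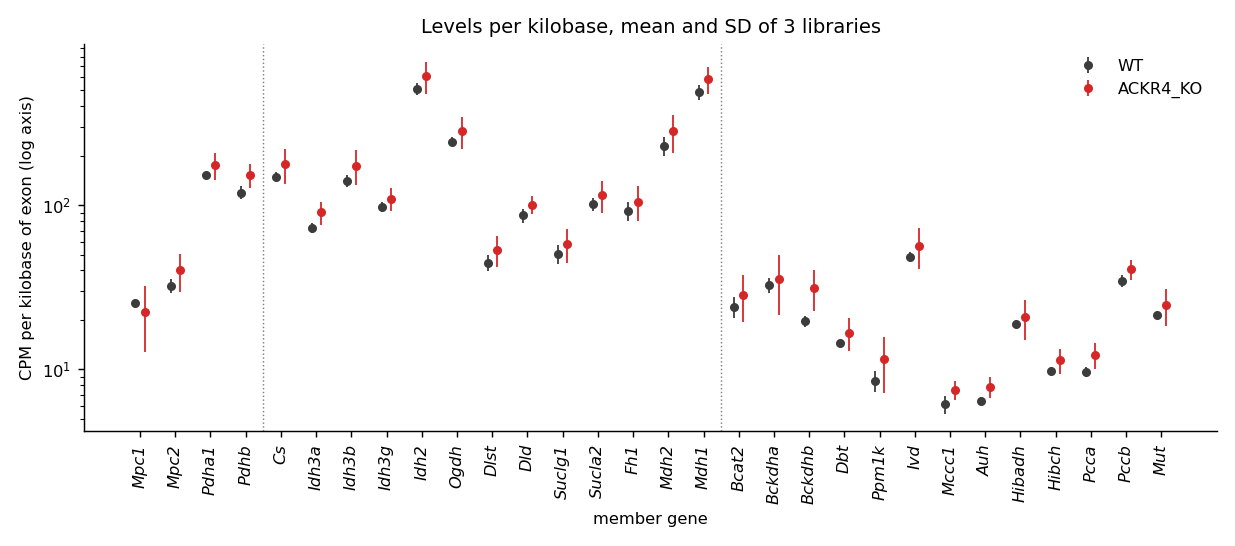
The 30 genes in the same order, with CPM per kilobase of annotated exon on a log axis. Points are means and bars the SD of 3 libraries, black for WT and red for ACKR4_KO. Idh2 and Mdh1 are highest, and the red bars are the longer ones.

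Levels were also set against heart muscle itself. 15 of 15 cardiomyocyte markers, such as Myh6, Actc1 and Atp2a2, had a fitted log2 fold change above 0 (median 0.39), and 0 of 15 passed by edgeR. Their summed level was 45460 to 56310 CPM in WT and 56900 to 78870 CPM in ACKR4_KO, without overlap, and no marker was at 0. In mean log2 CPM the markers were 0.13, 0.57 and 0.33 above the WT mean in ACKR4_KO replicates 1, 2 and 3. Relative to these markers the TCA genes kept nearly the same level in 5 of the 6 libraries, with a log2 difference of -2.23, -2.22 and -2.23 in WT and -2.22 and -2.25 in ACKR4_KO replicates 1 and 2. In ACKR4_KO replicate 3 it was -2.56. Branched-chain breakdown gave -5.08, -5.06 and -5.01 in WT and -4.93, -5.05 and -5.47 in ACKR4_KO, and pyruvate entry -3.40, -3.40 and -3.35 in WT and -3.46, -3.46 and -3.86 in ACKR4_KO. Pyruvate entry was lower in 3 of 3 ACKR4_KO libraries, while the other roles overlapped. This is a mean of 4 genes that includes Mpc1, whose reads may be split, and it was not computed without Mpc1. Relative to the WT mean, Mpc1 was at -0.09, 0.32 and -1.06, below the markers throughout. Pdha1 in replicate 1 (0.22), Mpc2 in replicate 2 (0.70) and Pdhb in replicate 3 (0.44) were above the markers, and below them in the remaining ACKR4_KO libraries. Over the 30 genes the difference between the groups relative to the markers was -0.12, and 0.01 without ACKR4_KO replicate 3.

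In ACKR4_KO replicate 3 the markers themselves did not move together. Actc1, Tnnc1 and Ttn were at 10700, 2146 and 2322 CPM, above every WT library. Mb, Ckmt2 and Pln were at 5434, 1260 and 895.9 CPM, below every one, though Pln was nearly level with the 898.8 CPM of WT replicate 3. With libraries scaled to the cardiomyocyte markers, under which the median of all genes was -0.33 against 0.01 with TMM, the median of the 30 genes was -0.11. The 3 genes still above 0 were Bckdhb at 0.31, Ppm1k at 0.08 and Pdhb at 0.006.

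**Figure D4:**
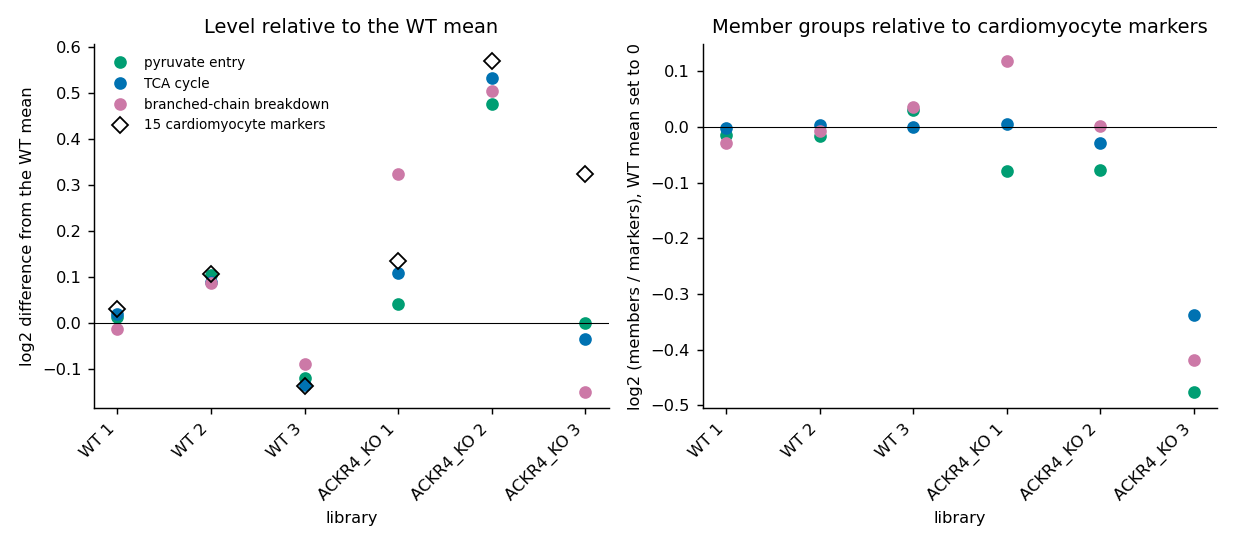
Left, the median log2 level of each role (filled circles) and the mean log2 level of the 15 cardiomyocyte markers (open diamonds) relative to the WT mean, for each of the 6 libraries. Right, the mean log2 level of each role minus that of the markers, with the WT mean set to 0: ACKR4_KO 3 is the lowest library for every role, and for the TCA cycle the other 5 libraries lie close to 0.

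A further 44 genes of the same pathways, listed from general knowledge of the pathways, were measured. By edgeR's test 0 of 44 passed in either direction, 36 had a fitted log2 fold change above 0 and the median was 0.21. At an unadjusted p under 0.05 there were 2 of 44, both higher, a share close to the 3.81% of all genes. Klf15, a Krüppel-like factor that activates branched-chain catabolism in heart, was at 35.9, 43.5 and 35.2 CPM in the WT hearts and 71.2, 78.7 and 43.1 CPM in the knockout hearts. Replicates 1 and 2 of ACKR4_KO were well above WT, and replicate 3 lay just under the highest WT library. The log2 fold change was 0.75 (standard error 0.22, adjusted p = 0.606 by edgeR), and it stayed between 0.41 and 0.98 in the 17 alternatives, with adjusted p from 0.0936 to 0.999. Dlat, the transacetylase core of pyruvate dehydrogenase, was at 293, 304 and 244 CPM in the WT hearts and 319.9, 409 and 356 CPM in the knockout hearts, without overlap, a log2 fold change of 0.37 (standard error 0.15, adjusted p = 0.664 by edgeR).

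None of the regulators of the dehydrogenase complexes passed. Bckdk was at 84.1, 92.5 and 79.2 CPM in the WT hearts and 82.0, 96.3 and 66.7 CPM in the knockout hearts, a log2 fold change of -0.06 (standard error 0.15). Slc25a44, a mitochondrial carrier of branched-chain amino acids, was at 28.6, 23.4 and 25.8 CPM in the WT hearts and 21.2, 21.6 and 24.6 CPM in the knockout hearts, a log2 fold change of -0.21 (standard error 0.13). Pdk4, a fasting-induced kinase that inactivates pyruvate dehydrogenase, ranged from 72.04 to 200.3 CPM within WT alone, and its log2 fold change of 0.21 had a standard error of 0.45. Pdk2 and the phosphatase gene Pdp1 had log2 fold changes of 0.23 and 0.13. Aco1, Hsd17b10 and Mcee, the next by p, had 0.23, 0.36 and 0.32. The ACKR4_KO libraries all lay above the WT libraries for 4 of 44 genes (6.53% of all genes) and all below for 1 of 44 (7.63%). Besides Dlat, these were Aco1, Sdha and Got1 on the higher side, and Pdk3 on the lower side at 5.91, 5.76 and 5.99 CPM in the WT hearts and 4.52, 3.89 and 4.89 CPM in the knockout hearts (Sdha, Got1 and Pdk3 were picked after their values were seen). Sdha, a subunit shared by the cycle and the respiratory chain, was at 953, 992 and 838 CPM in the WT hearts and 1175, 1310 and 1037 CPM in the knockout hearts.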

How the data were processed

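RNA sequencing libraries from 3 WT and 3 ACKR4_KO hearts were analysed. The deposited values are raw counts, whole reads per gene and library, made by the authors with CASAVA 1.8.2, HISAT2 and HTSeq 0.6.0 on mm10, per the submitters' processing notes. For the annotation release and the strand setting, not given in the sources used here, nothing was assumed. Groups and replicate numbers came from the sample descriptions. The table had 54532 rows and 0 that name no gene. Symbols, positions and lengths came from GENCODE M21 (GRCm38), which is the mm10 assembly, and promoters from RefSeq (GRCm38.p6).

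Genes were filtered with filterByExpr (minimum count 10, total 15), scaled by TMM and tested with the robust quasi-likelihood test of edgeR 4.0.16 in R 4.3.3, two-sided, with Benjamini-Hochberg adjustment over the 14406 genes tested. Alternatives used limma 3.58.1, DESeq2 1.42.0, other scalings and filters, a replicate block and each library left out. Code was tested on simulated data. Copies of the genes were sought among annotated transcripts (at least 90% identity over 200 bases). The 30 genes, the lists and the tests were chosen with earlier results of these data known. Values in every library were given, for each role, for the 3 genes with the smallest p, the highest per kilobase, any of opposite sign and those whose groups do not overlap, and Bckdha and Ppm1k were added after their values were seen. Of the other pathway genes, Bckdk, Slc25a44, Pdk4, Pdk2, Pdp1, Klf15 and the 4 with the smallest p were named.

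Total counts of 9422462 to 13910358 per library set the counting error. The titles give each sample its own number, which may be that of a mouse, but no label states that the samples are separate animals. If they are not, the p-values measure only technical spread.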

Additional observations from a re-analysis of the deposited data

How the results depend on the processing

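The count of 0 genes past the threshold among the 30, and among the 44 others, held in the 17 alternatives run. The 4 medians kept their sign in all but the scaling to cardiomyocyte markers, where they turned: -0.112 for the 30 genes, -0.104 for pyruvate entry, -0.107 for the TCA cycle and -0.117 for branched-chain breakdown. Under it the log2 fold changes that turned were Mpc2 -0.052, Pdha1 -0.155, Cs -0.107, Idh3a -0.041, Idh3b -0.046, Idh3g -0.184, Idh2 -0.08, Ogdh -0.134, Dlst -0.099, Dld -0.128, Suclg1 -0.151, Sucla2 -0.17, Fh1 -0.166, Mdh2 -0.059, Mdh1 -0.09, Bcat2 -0.127, Bckdha -0.209, Dbt -0.151, Ivd -0.117, Mccc1 -0.039, Auh -0.066, Hibadh -0.229, Hibch -0.142, Pcca -0.001, Pccb -0.108 and Mut -0.157, and, of the other pathway genes, Pdk4 -0.141, Pdk2 -0.128, Pdp1 -0.202, Aco1 -0.112, Hsd17b10 -0.004, Mcee -0.05 and Got1 -0.007. This scaling changes the reference by construction. When single libraries were dropped the medians ran over 0.072 to 0.361 (30 genes), 0.069 to 0.325 (pyruvate entry), 0.07 to 0.356 (TCA cycle) and 0.088 to 0.399 (branched-chain breakdown), lowest without ACKR4_KO replicate 2 and highest without ACKR4_KO replicate 3. Single genes that turned when a library was left out ranged as follows: Mpc1 -0.486 to 0.133, Bckdha -0.072 to 0.422, Sucla2 -0.006 to 0.307, Fh1 -0.012 to 0.333, Bcat2 -0.05 to 0.399, Hibadh -0.099 to 0.3, Pdk4 -0.196 to 0.739, Pdk2 -0.066 to 0.46 and Bckdk -0.193 to 0.069. The difference relative to cardiomyocyte markers ranged over -0.207 to 0.011 for the 30 genes and -0.208 to 0.061 for branched-chain breakdown, and turned without ACKR4_KO replicate 3. The cause was not tested.

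The replicate numbers shared by the groups are not stated to pair mice. The further numbers in the titles are the same in both groups for replicates 2 and 3 but differ for replicate 1. The deviations of same-numbered libraries from their group means correlated at 0.063, 0.06 and 0.129, and those of differently numbered ones at -0.141 to 0.074. With the number as a replicate block the median of the 30 genes was 0.217, 0 of 30 passed, and 6 of all genes passed against 0 without it. A correction for GC content and transcript length, added after the data were seen, gave a median of 0.244. With sarcomere genes alone as the reference the difference over the 30 genes was -0.187. A missed threshold does not show equal levels.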

Other observations

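3 of the 30 genes lie on chromosome 9 with Ackr4: Pccb at a distance of 3.05 Mb, Bckdhb at 20 Mb and Idh3a at 49.5 Mb. Bckdhb and Idh3a are 2 of the 3 genes whose groups did not overlap, while the groups of Pccb, the nearest to Ackr4, did. Over all genes, the ACKR4_KO libraries all lay above the WT libraries for 6.53%. The share among all genes of chromosome 9 was not computed, and a part of the position was not tested.

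Pseudogene copies were sought for all 30 genes. Mpc1-ps was the only copy with any read, and copies of Pdha1 and Ppm1k and the other copies of Mpc1 had 0.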
